A study of Rattus norvegicus with 9 samples.

Results

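The miR-34 family of the rat retina was measured as 5 mature miRNAs of 465 listed in the deposited tables: rno-miR-34a-5p, rno-miR-34b-5p, rno-miR-34b-3p, rno-miR-34c-5p and rno-miR-34c-3p, written below without the species prefix. They were chosen by name, as every row called miR-34a, miR-34b or miR-34c on either arm, but with earlier results of these data known. Small RNA was sequenced from dissected retinas of wild-type Sprague Dawley rats in 3 groups of 3 libraries. OIR P29 were animals with oxygen-induced retinopathy at postnatal day 29, OIR P14 were animals with the retinopathy at postnatal day 14, and sham P14 were control animals at postnatal day 14. Oxygen-induced retinopathy is a rodent model in which altered oxygen after birth halts the spread of the retinal vasculature, after which vessels grow back abnormally. No sham group at day 29 was analysed here, so age and stage of the retinopathy cannot be told apart in any comparison with OIR P29. The labels call the libraries biological triplicates but do not say if each came from 1 animal, so the p-values reflect only how much these libraries vary, and part of that may be technical.

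The miR-34 miRNAs are best known as direct transcriptional targets of the tumour suppressor p53. The miR-34a gene stands alone, whereas miR-34b and miR-34c are cut from 1 shared transcript. A miRNA loaded into an Argonaute protein finds its target mRNAs mainly through its seed, the bases near its 5′ end, and miR-34 targets include cell cycle, survival and Notch pathway genes. In mammals miR-34a is abundant in brain and other neural tissue, while miR-34b and miR-34c, with the related miR-449 miRNAs, are needed for multiciliated cells and are abundant in airway and testis.

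The mature sequences, credited to RefSeq (GRCr8), are shown because the family is defined by a shared seed and because the b and c copies are nearly the same. Capitals mark the seed, bases 2 to 8 from the 5′ end. All 5 members were matched by name, as were 423 of the 465 measured miRNAs.
miR-34a-5p: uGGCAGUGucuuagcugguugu
miR-34b-5p: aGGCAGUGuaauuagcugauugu
miR-34c-5p: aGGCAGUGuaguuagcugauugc
miR-449a-5p: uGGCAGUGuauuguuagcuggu
miR-34b-3p: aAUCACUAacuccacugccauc
miR-34c-3p: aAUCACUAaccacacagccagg
The seed GGCAGUG was carried by 5 mature miRNAs of the RefSeq table, of which 4 were measured: the 3 miR-34 5p arms and miR-449a-5p, from a separate gene. The 3p arms of miR-34b and miR-34c shared another seed, AUCACUA. miR-34b-5p differed from miR-34c-5p at 2 of 23 positions, written as the base of miR-34c-5p, the position from the 5′ end and the base of miR-34b-5p: G11A and C23U. The 3p arms differed at 5 of 22 positions. miR-34a-5p was 5 single-base edits away from miR-34c-5p.

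The hairpins of miR-34b and miR-34c are shown with the mature arms in capitals, since both arms were counted.
Mir34b: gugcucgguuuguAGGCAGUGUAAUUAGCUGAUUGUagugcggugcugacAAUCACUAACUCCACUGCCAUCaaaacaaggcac
Mir34c: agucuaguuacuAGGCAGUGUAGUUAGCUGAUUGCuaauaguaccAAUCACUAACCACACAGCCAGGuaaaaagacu
In GRCr8 these hairpins lie on the minus strand at chr8:60306609-60306692 and chr8:60306091-60306167, with 441 bases between them. RefSeq places the Mir34c hairpin within the span of the gene Hoatz, and the Mir34b hairpin overlaps the edge of that span, with Layn and Btg4 as the flanking protein-coding genes. Whether they fall in an exon or an intron is not in the annotation used here. The Mir34a hairpin lies on the plus strand at chr5:165815952-165816053, within the long non-coding gene LOC103692514, and the mature miR-449a-5p at chr2:46403925-46403946. The sources used here name no build for the deposited counts, so these positions describe the genes and not the authors' mapping.

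Library totals ran from 13088233 to 13973950 counts in OIR P29, from 12694068 to 15260603 in OIR P14 and from 11808893 to 12568341 in sham P14. miR-182, a photoreceptor miRNA, took 59.3% to 61.7%, 65.1% to 68.1% and 62.5% to 64.3% of them in the same order. None of the 3 photoreceptor, 2 neuron and 2 pigment epithelium markers was at 0 in any group. As 463 to 465 of the 465 miRNAs had a count in each library, this does not check the tissue. Counts of libraries in a group differed well beyond sampling noise (reduced chi-square 83.0 to 244), so each library was used as its own replicate. OIR P29 library 47 was further from libraries 20 and 21 (199.7 and 114) than these were from each other (83.0), and OIR P14 library 38 was likewise further from libraries 11 and 12 (151 and 132) than these from each other. Sham library 27 stood furthest from its group (243.5 from library 25 and 243.6 from library 51, which were 165.5 apart). Markers of other cells moved between the groups. The summed endothelial markers (2 of 2 measured) stood at 480.02 to 535 CPM in OIR P29, 165 to 304 in OIR P14 and 629.7 to 728 in sham P14. Mural cell markers (3 of 3) stood at 1478 to 1545, 298 to 605.1 and 1159 to 1293 CPM, leukocyte markers (4 of 4) at 68.4 to 81.3, 37.1 to 55.7 and 45.3 to 57.8 CPM, and pigment epithelium markers (2 of 2) at 31154 to 35605, 18390.3 to 23989 and 12362 to 19708 CPM in the same order. Erythroid markers (4 of 4) stood at 1067 to 1157, 988 to 1023 and 1047 to 1201 CPM and epithelial markers (5 of 5) at 6.08 to 19.3, 3.45 to 12.8 and 5.36 to 8.40 CPM. The erythroid sum hides its members, of which 3 of 4 were called higher in OIR P29 than in OIR P14. Over all miRNAs tested, 22.9% were called higher there. Of the 3, miR-144-3p and miR-144-5p averaged 0.519 and 0.286 CPM in OIR P14, against 3.53 and 1.90 CPM in OIR P29. These arms passed the low-count filter only through OIR P29, where they are high, so the count is a description. The other, miR-451-5p, averaged 10.5 ± 2.57 CPM in OIR P29, 1.22 ± 0.231 CPM in OIR P14 and 5.22 ± 1.67 CPM in sham P14 (SD, n = 3 each). The leukocyte sum hides its members too. In it miR-150-5p averaged 35.8 ± 0.755, 6.55 ± 1.63 and 23.8 ± 3.68 CPM in the same order (SD, n = 3 each). It was called lower in OIR P14 than in sham P14 and higher in OIR P29 than in OIR P14. In OIR P14 against sham P14 only 3 of the 4 leukocyte markers passed the filter. The other 2 of these were not called and lay above 0, with a median log2 fold over the 3 of 0.38 and a highest of 0.47. In OIR P29 against OIR P14, 3 of the 4 leukocyte markers were not called, with a lowest log2 fold of -1.59. The part of all these cells in the results below was not tested. In whole retinas, fewer cells of a type and less RNA per cell cannot be told apart.

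miR-34c-5p was the main member in every library. Its level in CPM (counts relative to library size, with TMM over all 9 libraries) averaged 39.4 ± 2.64 CPM in OIR P29, 79.1 ± 7.92 CPM in OIR P14 and 70.4 ± 8.19 CPM in sham P14 (SD, n = 3 each), place 128 of 465 by mean level. miR-34a-5p stood far below it at 9.38 ± 1.95, 6.68 ± 1.24 and 7.58 ± 2.55 CPM (SD, n = 3 each). miR-34b-5p averaged 2.25 ± 0.416, 5.01 ± 0.815 and 3.70 ± 0.729 CPM in the same groups (SD, n = 3 each). The passenger arms were scarce: miR-34b-3p averaged 0.441 ± 0.262, 1.09 ± 0.163 and 1.31 ± 0.388 CPM, and miR-34c-3p 0.110 ± 0.134, 0.624 ± 0.547 and 0.300 ± 0.0653 CPM (SD, n = 3 each). All mature members are 22 or 23 bases long, so no length correction was needed, but how well each sequence was captured in the library was not measured.

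**Figure D1:**
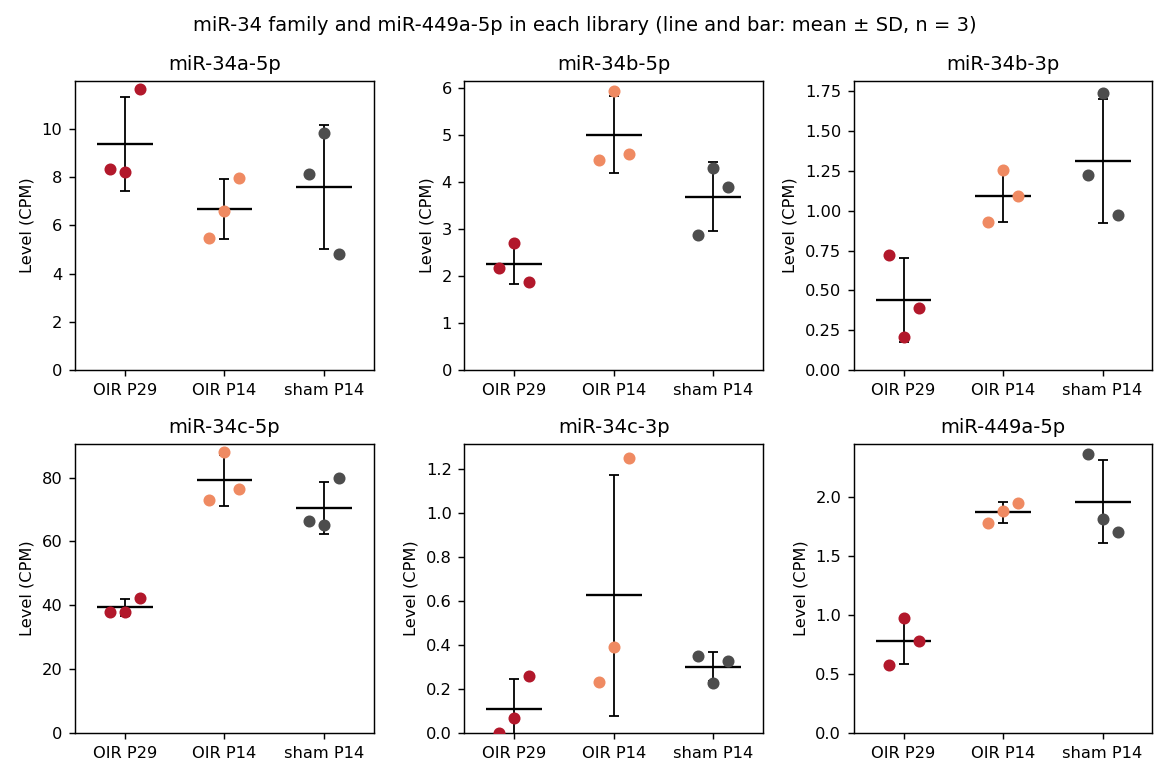
Level in CPM (y axis, linear, from 0, a separate scale in each panel) of each miR-34 member and of miR-449a-5p in the 3 libraries of OIR P29, OIR P14 and sham P14. Points are libraries, the line is the mean and the bar the SD (n = 3; the lower bar of miR-34c-3p in OIR P29 is clipped at 0). The OIR P29 libraries of miR-34c-5p sit between 37.8 and 42.4 CPM, below the 6 P14 libraries, while those of miR-34a-5p do not sit below the others.

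At day 14, OIR and sham retinas of the same age were compared, and 0 of the 4 members that passed the low-count filter were called. Across the table edgeR's quasi-likelihood test called 1.69% of 415 miRNAs, all lower in OIR P14. None of the 4 had an unadjusted p under 0.05, and DESeq2 and limma-voom also called 0 of them. miR-34c-5p, the lead arm of its hairpin, had 944, 1124 and 977 counts in OIR P14, against 758, 863 and 983 in sham P14. The groups overlapped through sham library 51, and the log2 fold was 0.19 ± 0.13 SE, with a 95% interval of -0.11 to 0.49 (edgeR adjusted p = 0.624). The fold was 0.012 with scaling by library totals alone and 0.31 without sham library 51, and neither was called.

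miR-34a-5p had 71, 84 and 102 counts in OIR P14, against 93, 130 and 59 in sham P14. The sham libraries held both the highest and the lowest count. Its log2 fold of -0.15 ± 0.26 SE had an interval of -0.74 to 0.43 (edgeR adjusted p = 0.873) and became 0.076 without sham library 27. miR-34b-5p had 58, 76 and 59 counts in OIR P14, against 33, 57 and 48 in sham P14. Its CPM did not overlap between the groups (lowest 4.48 in OIR P14, highest 4.30 in sham P14), as was the case for 15.2% of all miRNAs tested and, in this direction, for 3.86%. The log2 fold of 0.46 ± 0.21 SE was not called (edgeR adjusted p = 0.554). miR-34b-3p, the opposite arm, had 12, 16 and 14 counts in OIR P14, against 14, 23 and 12 in sham P14, with a log2 fold of -0.25 ± 0.28 SE (edgeR adjusted p = 0.825) that became 0.010 without sham library 27. miR-34c-3p, the passenger arm of miR-34c, had 3, 5 and 16 counts in OIR P14, against 4, 3 and 4 in sham P14, and did not pass the filter. Without the filter its log2 fold was 1.07 ± 0.67 SE (edgeR adjusted p = 0.602), and it was 0.076 without OIR P14 library 38, which held most of its counts.

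Between OIR P29 and OIR P14, miR-34c-5p and miR-34b-5p were lower at the later age while miR-34a-5p was not. miR-34b-3p was lower too, but its call was lost in most fits with 1 library left out. edgeR called 46.7% of 424 miRNAs here, 23.8% lower and 22.9% higher. miR-34c-5p had 522, 546 and 653 counts in OIR P29, against 944, 1124 and 977 in OIR P14. Every OIR P29 library lay below every OIR P14 library, as for 27.1% of all miRNAs tested. It fell 2.04-fold, a log2 fold of -1.03 ± 0.10 SE with a 95% interval of -1.26 to -0.80 (edgeR adjusted p = 0.000217), and 30 of the 101 miRNAs called lower fell further.

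miR-34b-5p, cut from the same transcript, had 30, 39 and 29 counts in OIR P29, against 58, 76 and 59 in OIR P14. The groups did not overlap, as for 27.1% of all miRNAs tested in this direction. It fell 2.26-fold (log2 fold -1.18 ± 0.20 SE, edgeR adjusted p = 0.00247). Its other arm, miR-34b-3p, had 10, 3 and 6 counts in OIR P29, against 12, 16 and 14 in OIR P14. The groups did not overlap here either, and it fell 2.503-fold (log2 fold -1.32 ± 0.39 SE, edgeR adjusted p = 0.0268). miR-34b-3p passed the filter only through its OIR P14 libraries, where it is high, so its call is a description. That call was lost when any library but OIR P29 library 20 was left out, with edgeR adjusted p of 0.0789 without OIR P29 library 21, 0.0942 without 47, 0.0563 without OIR P14 library 11, 0.0942 without 12 and 0.0635 without 38.

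miR-34c-3p had 0, 1 and 4 counts in OIR P29, against 3, 5 and 16 in OIR P14, and 4, 3 and 4 in sham P14. A count of 0 in that OIR P29 library allows up to 0.229 CPM, taken as 3 counts of its total. The groups overlapped, 16 of the 24 OIR P14 counts came from library 38, and the miRNA did not pass the filter. Fitted without the filter, its log2 fold was -2.37 ± 0.94 SE (edgeR adjusted p = 0.0757), and it was -1.39 (0.257) without OIR P14 library 38 and -3.84 (0.0467) without OIR P29 library 47. The authors' deposited table gives it a log2 fold of -2.36 and a false discovery rate of 0.0422.

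miR-34a-5p had 115, 118 and 179 counts in OIR P29, against 71, 84 and 102 in OIR P14. In CPM all 3 OIR P29 libraries lay above the OIR P14 libraries, narrowly (lowest 8.18 against a highest of 7.97), which was the case in this direction for 30.2% of all miRNAs tested. The log2 fold of 0.47 ± 0.20 SE, with an unadjusted interval of 0.0097 to 0.94, was not called (edgeR adjusted p = 0.0851). It was called with scaling by library totals alone (log2 fold 0.73, edgeR adjusted p = 0.0399), a scaling under which the median over all miRNAs was 0.25 in place of -0.014.

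Of the 4 members that passed the filter, edgeR thus called 3 lower and 0 higher, limma-voom 3 and DESeq2 2. Over all 424 miRNAs tested, edgeR called 23.8% lower and 22.9% higher. The 3 are cut from 1 shared transcript, so they are not independent of each other. miR-34b-3p passed the filter only through its OIR P14 libraries, so the count of 3 is a description. The same 3 had the same sign under totals alone, with log2 folds of -0.76 for miR-34c-5p, -0.90 for miR-34b-5p and -1.06 for miR-34b-3p, where the calls over all miRNAs split into 148 higher and 53 lower in place of 97 and 101.

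**Figure D2:**
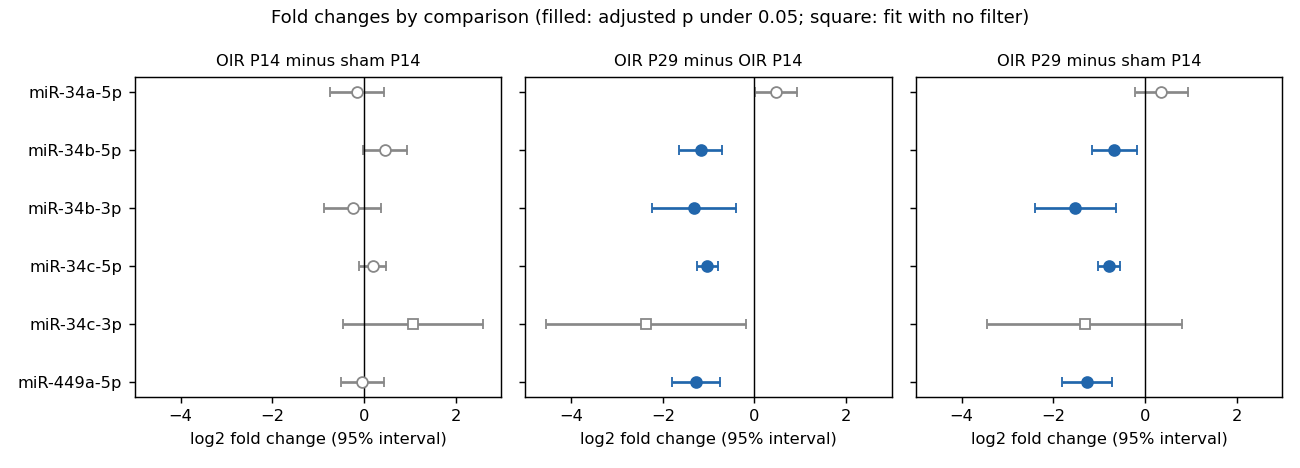
Log2 fold change (x axis) with its 95% interval for each miR-34 member and miR-449a-5p (rows) in the comparisons of OIR P14 with sham P14, OIR P29 with OIR P14 and OIR P29 with sham P14, from edgeR. Filled points have an adjusted p under 0.05 and squares come from the fit with no filter. The filled points of miR-34b-5p, miR-34b-3p, miR-34c-5p and miR-449a-5p all lie left of 0 in both comparisons with OIR P29, while the open points of miR-34a-5p lie at 0.47 and 0.36.

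OIR P29 was also set beside sham P14, which differ in age and in retinopathy at once, in a fit of all 9 libraries that called 41.9% of 432 miRNAs, 21.1% lower and 20.8% higher. These values share the OIR P29 libraries with the comparison before. miR-34c-5p was 1.72-fold lower in OIR P29 (log2 fold -0.78 ± 0.11 SE, edgeR adjusted p = 0.000313), with all OIR P29 libraries (37.8 to 42.4 CPM) below all sham P14 libraries (65.1 to 79.9 CPM). miR-34b-3p was 2.87-fold lower (log2 fold -1.52 ± 0.40 SE, edgeR adjusted p = 0.0110), a call lost without sham library 27 (adjusted p = 0.0528). It passed the filter only through the P14 libraries here too, so this call is a description. miR-34b-5p was 1.59-fold lower (log2 fold -0.67 ± 0.23 SE, edgeR adjusted p = 0.0359). Its call was lost without OIR P29 library 20 (adjusted p = 0.0850) or 47 (0.118), and without sham library 27 (0.115) or 51 (0.0868). miR-34a-5p had a log2 fold of 0.36 ± 0.26 SE and overlapping groups (edgeR adjusted p = 0.291), which ranged from 0.11 without sham library 51 to 0.61 without sham library 27. miR-34c-3p, without the filter, had one of -1.32 ± 0.96 SE (edgeR adjusted p = 0.304), which ranged from -2.75 without OIR P29 library 47 to -0.80 without OIR P29 library 20. The groups did not overlap for 54.2% of all miRNAs tested, or for 31.5% counting only those lower in OIR P29, and for miR-34c-5p and both miR-34b arms.

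By level, miR-34c-5p and miR-34b-5p thus stood in the order OIR P14, sham P14, OIR P29, miR-34b-3p in the order sham P14, OIR P14, OIR P29, and miR-34a-5p in the order OIR P29, sham P14, OIR P14. For none of these did the 2 day-14 groups differ by the test, and for miR-34a-5p no pair of groups did.

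The ratio of miR-34c-5p to miR-34a-5p was read within each library, where no scaling can change it. miR-34c-5p made up 81.9%, 82.2% and 78.5% of the counts of the pair in OIR P29, and 93.0%, 93.0% and 90.5% in OIR P14, against 89.1%, 86.9% and 94.3% in sham P14. The OIR P29 libraries lay below the other 6. The exact 95% binomial intervals met only for OIR P29 libraries 20 and 21 (upper bounds 84.9% and 85.1%) and sham library 27 (lower bound 84.7%). These intervals cover counting error only. The mean share was 80.9% ± 2.08 in OIR P29 and 92.2% ± 1.43 in OIR P14 (SD, n = 3 each), a difference of -11.3 percentage points. As a mean log2 ratio of the counts it was 2.81-fold lower in OIR P29. The exact 2-sided permutation test gave p = 0.1, the smallest that 3 against 3 libraries allow (0.3 after Benjamini-Hochberg adjustment over 6 such tests). Against sham P14 (90.1% ± 3.82, SD, n = 3) the difference was -9.22 points with the same exact p = 0.1 (adjusted 0.3), and between OIR P14 and sham P14 it was 2.09 points with exact p = 0.4 (adjusted 0.6), or 0.495 points without sham library 27 and 4.21 points without sham library 51.

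**Figure D3:**
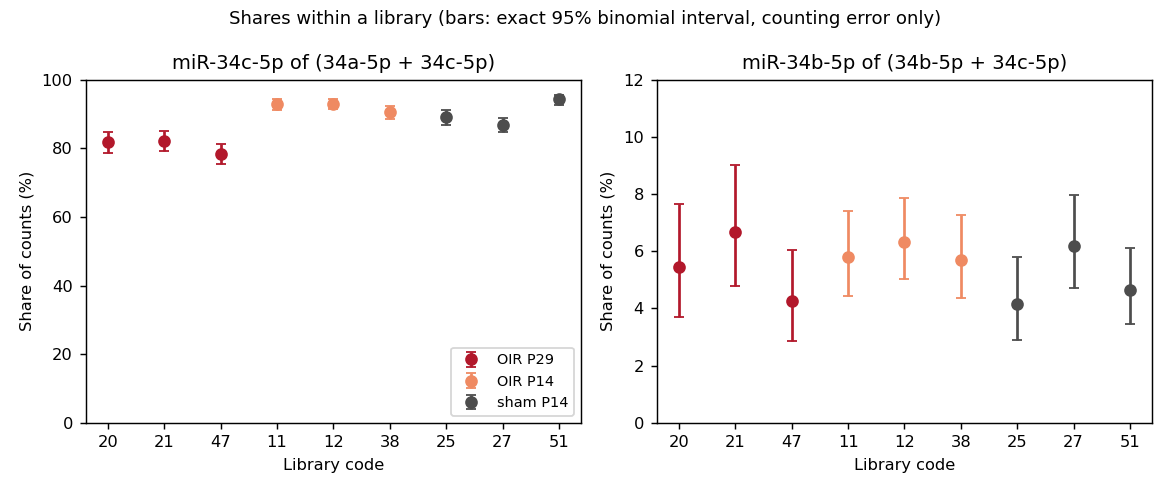
Share of counts in percent (y axis) in each of the 9 libraries (x axis, library code), for miR-34c-5p among miR-34a-5p and miR-34c-5p counts (left) and for miR-34b-5p among miR-34b-5p and miR-34c-5p counts (right, a narrower scale). Bars are exact 95% binomial intervals. On the left the 3 OIR P29 libraries lie between 78.5% and 82.2%, below the other 6 libraries. On the right all 9 lie between 4.17% and 6.67%, with overlapping bars.

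miR-34b-5p and miR-34c-5p kept a narrow ratio. miR-34b-5p made up 5.43%, 6.67% and 4.25% of their joint counts in OIR P29, and 5.79%, 6.33% and 5.69% in OIR P14, against 4.17%, 6.20% and 4.66% in sham P14, and every pair of groups overlapped. Because the sequences differ at only 2 positions, reads of one could have been counted for the other, and the values of miR-34b-5p are uncertain to that extent. The arms of the hairpins were far from equal. The 5p arm held 99.4% to 100% of miR-34c counts in OIR P29, 98.4% to 99.7% in OIR P14 and 99.5% to 99.7% in sham P14. The exact 2-sided permutation p was 0.4, 0.5 and 0.7 (adjusted 0.6, 0.6 and 0.7) for OIR P29 against OIR P14, OIR P29 against sham P14 and OIR P14 against sham P14. For miR-34b the 5p arm held less, 75.0% to 92.9% in OIR P29, 80.8% to 82.9% in OIR P14 and 70.2% to 80.0% in sham P14, from 35 to 92 counts a library. The OIR P14 shares lay just above the sham P14 shares, and no test was made.

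miR-449a-5p, which shares the seed and is made in multiciliated cells, had 8, 14 and 12 counts in OIR P29, and 23, 24 and 25 in OIR P14, against 27, 24 and 21 in sham P14. All OIR P29 libraries lay below the other 6. Of all miRNAs tested, 27.1% were lower in OIR P29 without overlap against OIR P14, and 31.5% against sham P14. Of the multiciliated cell markers only this miRNA and miR-34b-5p were in the tables, so no independent marker of those cells was read. miR-449a-5p fell 2.43-fold against OIR P14 (log2 fold -1.28 ± 0.23 SE, edgeR adjusted p = 0.00294) and 2.40-fold against sham P14 (-1.26 ± 0.25, 0.00240), and was not called between OIR P14 and sham P14 (-0.035 ± 0.21, 0.948). Like miR-34b-3p it passed the filter only through the P14 libraries, where it is high, so its lower calls are a description. The 4 measured miRNAs with the seed GGCAGUG summed to 48.9, 49.7 and 56.7 CPM in OIR P29, and 84.7, 102 and 90.8 CPM in OIR P14, against 79.7, 81.0 and 90.3 CPM in sham P14. miR-34a-5p made up 16.5% to 20.5% of that sum's counts in OIR P29, 6.42% to 8.77% in OIR P14 and 5.31% to 12.1% in sham P14, and miR-34c-5p 74.8% to 77.3%, 84.0% to 86.1% and 80.4% to 88.5%.

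Likeness of profile was measured as the root mean square difference of log2 CPM over the 9 libraries, each miRNA centred on its own mean. For miR-34c-5p the closest of 428 miRNAs were miR-488-3p (0.0712), miR-181c-3p (0.118), miR-148b-3p (0.126), miR-340-3p (0.132) and miR-19b-3p (0.138), where the median miRNA stood at 0.509. These differences are in log2 units. miR-488-3p averaged 66.6 CPM in OIR P29, 138 in OIR P14 and 124.5 in sham P14. By the same measure miR-34b-5p was at place 40 (0.247), miR-449a-5p at 74 (0.316), miR-34b-3p at 254 (0.566) and miR-34a-5p at 339 (0.737). For miR-34a-5p the closest were miR-190a-5p (0.113), miR-99a-5p (0.195), miR-146b-5p (0.199), miR-345-5p (0.202) and miR-483-3p (0.204), with a median of 0.479. miR-190a-5p averaged 20.3 CPM in OIR P29, 14.1 in OIR P14 and 15.4 in sham P14, so the order of its groups was that of miR-34a-5p.

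**Figure D4:**
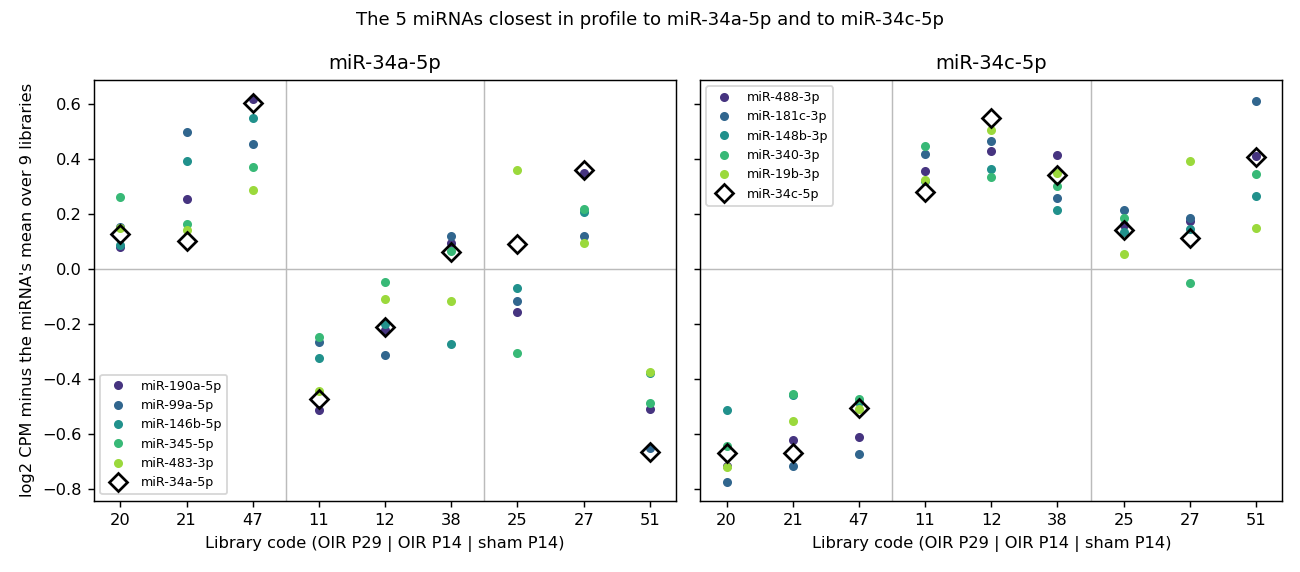
Log2 CPM minus each miRNA's own mean over the 9 libraries (y axis) by library code (x axis: OIR P29, OIR P14 and sham P14 from left to right), for miR-34a-5p (left) and miR-34c-5p (right) as open diamonds and the 5 closest miRNAs of each as points. miR-34c-5p is below its mean in the 3 OIR P29 libraries and above it in the other 6. miR-34a-5p varies within groups, from its lowest level in sham library 51 (4.79 CPM) to its highest in OIR P29 library 47 (11.6 CPM).

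Other miRNAs reported to be transcribed or processed under p53 (19 names in the tables, 14 past the filter) were counted in the same fits. Against OIR P14, edgeR called 8 of the 14 higher and 1 lower in OIR P29, beside 22.9% higher and 23.8% lower over all miRNAs tested, with a median log2 fold of 0.64, beside -0.014 over all miRNAs tested. miR-22-3p averaged 8855 ± 203 CPM in OIR P29, against 5614 ± 389 CPM in OIR P14 (SD, n = 3 each; log2 fold 0.63, edgeR adjusted p = 0.000741). miR-192-5p averaged 781 ± 44.6 CPM in OIR P29, against 362 ± 113 CPM in OIR P14 (SD, n = 3 each; 1.09, 0.00305). miR-16-5p, whose targets include cyclins, was the 1 called lower, at 1880.2 ± 156 CPM in OIR P29, against 2856 ± 130 CPM in OIR P14 (SD, n = 3 each; -0.63, 0.00129). Among the 8 were miR-143-3p and both arms of miR-145, which are also the mural cell markers above, and miR-143-3p had a log2 fold of 1.79 (adjusted p = 0.000750). Both arms of miR-22 were among the 8 too, so the 8 are not independent of each other.

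Against sham P14, 5 of the 14 were higher and 1 lower in OIR P29, beside 20.8% higher and 21.1% lower over all miRNAs tested. The median log2 fold was 0.40 beside 0.0089 over all miRNAs tested. With 1 library left out it ranged from 0.28 without OIR P29 library 21 to 0.68 without sham library 25. It was 0.63 without OIR P29 library 20, 0.39 without sham library 27 and 0.34 without sham library 51, and 0.33 with limma-voom. From 14 to 17 of the list passed the filter in the fits with 1 library left out. miR-22-3p, miR-192-5p, miR-22-5p and miR-194-5p were higher, with log2 folds of 0.71, 1.13, 1.06 and 0.92, and miR-16-5p lower at -0.52 (edgeR adjusted p from 0.000203 to 0.00244). The arms of miR-22 are not independent of each other. miR-143-3p and both arms of miR-145 were not called here. Between OIR P14 and sham P14, 0 of the 14 were higher and 2 lower, the mural markers miR-143-3p (-1.46, edgeR adjusted p = 0.0112) and miR-145-3p (-1.33, 0.0291), with a median of -0.040 beside -0.027. Without sham library 27 or 51, or with limma-voom, 0 of the 14 were lower, and 1 was without OIR P14 library 11 or 12 or sham library 25. With DESeq2 or without OIR P14 library 38, 3 of the 14 were lower, as were 3 of all 19 in the authors' deposited values. Of 5 miRNAs reported to target the p53 mRNA itself, 2 were higher (miR-33-5p, log2 fold 0.87, edgeR adjusted p = 0.00256; miR-125b-5p, 0.48, 0.0275) and 1 lower (miR-25-3p, -0.74, 0.000750) in OIR P29 against OIR P14, beside 22.9% higher and 23.8% lower over all miRNAs tested. Without OIR P29 library 47, or OIR P14 library 11 or 12, 1 of the 5 was higher, and without OIR P14 library 38, 2 were lower. miR-33-5p, miR-125b-5p and miR-25-3p were called in the same directions against sham P14, beside 20.8% higher and 21.1% lower over all miRNAs tested. For OIR P14 against sham P14, 0 of the 5 were called, beside 0% higher and 1.69% lower over all miRNAs tested.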

How the data were processed

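Per the labels' protocols, small RNA libraries of dissected retinas were read over 50 bp from 1 end. The authors deposited 2 tables that hold raw counts of mature miRNAs in 6 libraries, a log2 fold and a false discovery rate (an adjusted p-value), per the file headers. The submitters' processing notes name limma. The sources used here name no trimming, aligner, counter, build or annotation. Columns carry library codes, placed in groups by which tables hold them: 11, 12 and 38 (in both, with 1395 of 1395 counts identical) are OIR P14, 25, 27 and 51 sham P14, and 20, 21 and 47 OIR P29.

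Deposited counts were fitted with edgeR 4.0.16 (R 4.3.3): TMM, filterByExpr (minimum count 10, minimum total 15), quasi-likelihood F test, Benjamini-Hochberg adjustment over all miRNAs tested, threshold 0.05. Each table was fitted alone, and OIR P29 against sham P14 with all 9 libraries. The filter left 415, 424 and 432 miRNAs. SE is the log2 fold over the square root of F. DESeq2 1.42.0, limma 3.58.1 (voom), other scalings, no filter and left-out libraries were alternatives. The fits were also run on simulated counts with the same spread for every miRNA, a check of the code and not of the calls above. All members, the miRNAs with their seed, up to 4 called members per p53 list and direction, and the 5 nearest profiles (prior count 0.5) are named. The members and lists were chosen with earlier results of these data known.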

Additional observations from a re-analysis of the deposited data

How the results depend on the processing

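Low counts limit the scarce arms most: miR-34b-3p rested on 3 to 23 and miR-34c-3p on 0 to 16 counts a library. No paired analysis was possible because the table columns carry library codes and not the replicate numbers of the labels. The setting without OIR P14 library 38 and OIR P29 library 47 and the refits of miR-34c-3p with no filter were chosen after seeing the data.

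miR-34c-5p kept its direction and its call in both comparisons with OIR P29 under every alternative run, and miR-34b-5p did against OIR P14. Against OIR P14, miR-34b-3p was not called with totals alone (log2 fold -1.06), DESeq2 (-1.32) or without libraries 38 and 47 (-1.26), and miR-34a-5p was called with totals alone (0.73). Against sham P14, miR-34b-5p was not called with totals alone (-0.63), DESeq2 (-0.66), limma-voom (-0.67) or without libraries 38 and 47 (-0.56), and miR-34c-3p was called without libraries 38 and 47 (-2.72). The cause was not tested.

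Leaving out 1 library at a time gave these ranges of log2 fold. In OIR P29 against OIR P14 they were 0.34 to 0.61 for miR-34a-5p, -1.82 to -0.94 for miR-34b-3p and -3.84 to -1.39 for miR-34c-3p. In OIR P29 against sham P14 they were 0.11 to 0.61 for miR-34a-5p, -0.81 to -0.53 for miR-34b-5p, -2.05 to -1.18 for miR-34b-3p and -2.75 to -0.80 for miR-34c-3p. In OIR P14 against sham P14 they were -0.38 to 0.076 for miR-34a-5p, -0.40 to 0.010 for miR-34b-3p and -0.11 to 0.11 for miR-449a-5p, the last also positive with limma-voom (0.051), and none was called. The 5p share of miR-34c there ranged from -0.602 to 0.0457 percentage points, the positive value (0.0457) also without libraries 38 and 47 together. Totals alone moved the median log2 fold over all miRNAs there to -0.21, against -0.027. The number of miRNAs called there, 7, became 14 with DESeq2 and 2 with limma-voom, and 1 to 7 with 1 library left out.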
